A study of Mus musculus with 24 samples.

Results

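Libraries from mouse leukaemia cells with MLLT10 knocked out were set against libraries from the same cells with MLLT6 knocked out. The libraries were chosen by the sample names, not by any measured value. They are 12 of the 24 libraries of the series, 6 per knockout, from 2 guide RNAs per gene with 3 replicates each. The cells are acute myeloid leukaemia (AML) cells of the mouse line named MLLAF9, with the fusion oncogene MLL-AF9 and the nuclease Cas9. Guide RNAs were delivered by lentivirus (multiplicity of infection 0.3), puromycin at 2 ug/ml was given for 72 hours from hour 48, and total RNA was taken on day 9. All 12 libraries and the 3 non-targeting control libraries carry the fusion and Cas9 and share this selection. So do the 3 libraries with DOT1L knocked out and the 6 with MLLT1 knocked out, which are set beside the contrast further below. All 24 libraries entered the fit. Cells of a library are a selected pool, and the labels name neither the guides' target sites nor the share of cells edited. Whether replicates are separate cultures is not stated in the labels, and p-values therefore measure only the spread among these samples, which may be technical.

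MLLT10 (also called AF10) and MLLT6 (AF17) are related proteins that bind DOT1L, the enzyme that methylates lysine 79 of histone H3 in the body of transcribed genes. MLL fusion proteins are known to recruit DOT1L complexes to the genes they drive, among them Hoxa9 and Meis1, and leukaemias with such fusions are known to depend on DOT1L. Loss of that activity is known to let these blasts express genes of mature myeloid cells, such as the granule proteins of neutrophils. The comparison asks for which mRNAs loss of one cofactor differs from loss of the other.

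Library totals ran from 2499684 to 7078139 counts in the MLLT10 knockout and from 2719757 to 6773032 in the MLLT6 knockout. Depth and knockout were linked: all but 2 of the MLLT10 libraries were deeper than all but 1 of the MLLT6 libraries. MLLT6 guide 1 replicate 3 stood apart from its group, with a spread of 0.377 in log2 level around the group's mean, where the other 11 libraries had 0.206 to 0.321. Without it, 33 genes were called higher and 28 lower. Sums of marker genes of other cell types overlapped between the knockouts for lymphoid (226 to 361 against 187 to 373 CPM, counts per 1000000), dendritic, erythroid, megakaryocyte, eosinophil and stromal lists. Of the 26 lymphoid markers, 14 had no count in any of the 12 libraries. Genes of myeloid blasts were present throughout: cathepsin G (Ctsg) was at 3644 to 5730 CPM and the fusion target Hoxa9 at 176 to 282 CPM.

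The targeted mRNAs were examined first. Mllt10 (ENSMUSG00000026743, GRCm38 chromosome 2, 18055237 to 18212388) measured 9.06, 7.98 and 9.40 CPM in the 3 libraries of MLLT10 guide 1, and 10.6, 11.1 and 12.1 CPM in those of guide 2. In the libraries of MLLT6 guide 1 it was at 10.9, 14.4 and 8.06 CPM, MLLT6 guide 2 gave 16.9, 18.4 and 19.2 CPM, and the control gave 16.9, 14.7 and 19.1 CPM. The MLLT10 libraries thus overlapped with those of MLLT6 guide 1 and lay below those of guide 2. The log2 fold change, MLLT10 minus MLLT6, was -0.51 ± 0.18 (SE, the standard error of the fit, n = 6 and 6) and did not pass the test (quasi-likelihood test of edgeR, Benjamini-Hochberg adjusted p = 0.247). The strand setting of the counting is not given. Reads of Dnajc1, which overlaps Mllt10 on the other strand, may therefore be mixed with those of Mllt10.

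Mllt6 (ENSMUSG00000038437, chromosome 11, 97663414 to 97685463) measured 20.9, 23.3 and 14.9 CPM in the 3 libraries of MLLT6 guide 1, and 18.03, 19.07 and 17.08 CPM in those of guide 2. It measured 22.7, 38.5 and 32.1 CPM in the 3 libraries of MLLT10 guide 1, and 26.7, 28.99 and 29.7 CPM in those of guide 2. All but 1 MLLT10 library lay above every MLLT6 library, and the difference was 0.66 ± 0.16 in log2 (edgeR adjusted p = 0.0440). That call was lost in 12 of 19 alternative analyses, with adjusted p up to 0.144 (edgeR without MLLT6 guide 1 replicate 3). Small insertions and deletions left by Cas9 need not lower an mRNA, so these levels check the labels only weakly.

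Dot1l, the methyltransferase itself, was at 75.7 ± 2.65 CPM (SD, n = 6) in the MLLT10 knockout, 61.0 ± 5.15 CPM (n = 6) in the MLLT6 knockout, and the control gave 69.7, 75.1 and 73.9 CPM. Every MLLT10 library, from 72.6 to 79.3 CPM, lay above every MLLT6 library, from 54.3 to 65.6 CPM. The difference of 0.32 ± 0.09 in log2 did not pass edgeR's test (adjusted p = 0.102) and passed that of DESeq2 (adjusted p = 0.0348). Mllt1 and Mllt3, which encode the cofactors ENL and AF9, differed by -0.04 ± 0.17 and -0.13 ± 0.21 in log2, within their errors.

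**Figure D1:**
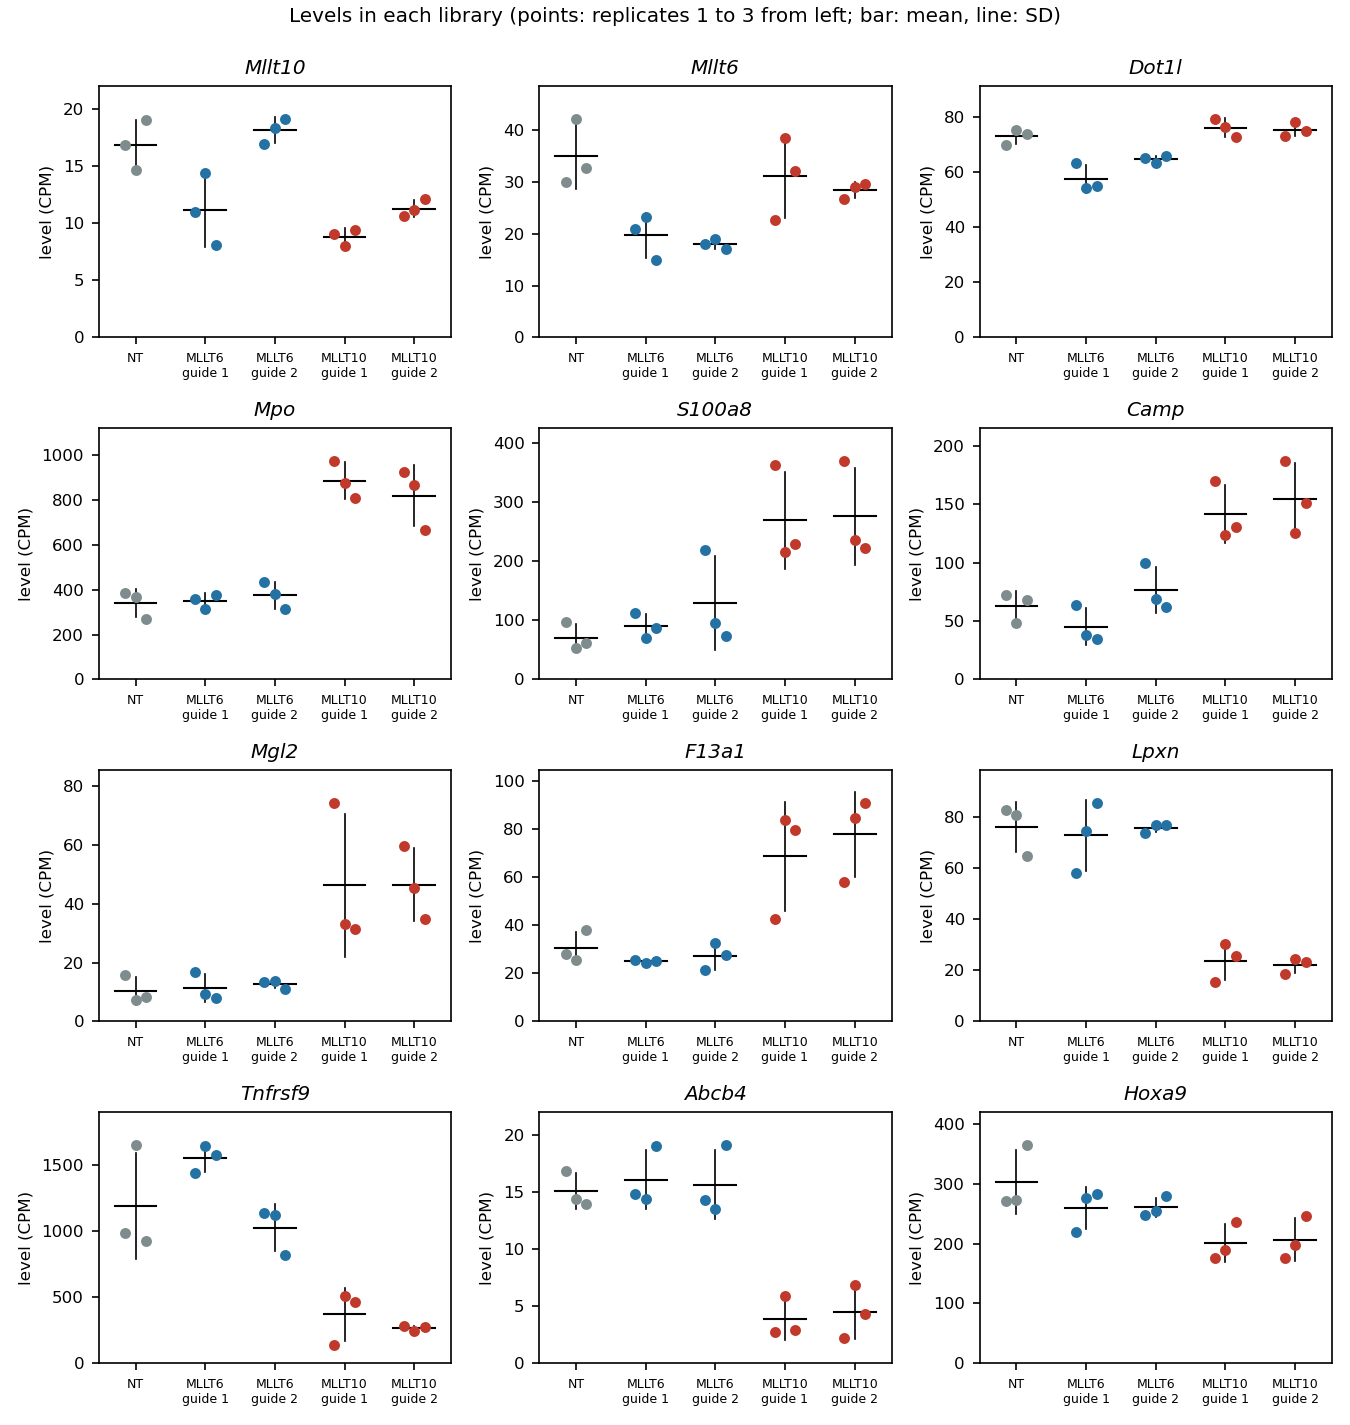
Levels of 12 genes (y axis, CPM, linear from 0) in the 3 control, 6 MLLT6 and 6 MLLT10 libraries, 1 point per library, with the mean (bar) and SD (line) of each guide's 3 libraries. Mpo, Camp, Mgl2 and F13a1 are higher in all 6 MLLT10 libraries than in all 6 MLLT6 libraries, and Lpxn, Tnfrsf9 and Abcb4 are lower in all 6, while those of Mllt10, Mllt6 and Hoxa9 overlap.

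Between the knockouts, the MLLT10 cells held more mRNA of 12 genes on the lists of neutrophil granule genes. Of these 12, 3 (Hp, Ltf and Cybb) were called in fewer than 10 of the alternative analyses. The MLLT10 cells also held more mRNA of the monocyte genes Mgl2 and F13a1 and of the chemokines Ccl6 and Ccl9. They held less mRNA of the receptors Tnfrsf9 and Tnfrsf18, the adaptor Lpxn and the histone demethylase Jmjd1c. Myeloperoxidase (Mpo), the green enzyme of neutrophil primary granules, averaged 854 ± 107 CPM against 362 ± 46.2 CPM (SD, n = 6 and 6). Leupaxin (Lpxn), an adaptor of the paxillin family at cell adhesions, averaged 22.9 ± 5.37 CPM against 74.4 ± 8.95 CPM. In bulk RNA, fewer cells of a type and less RNA per cell cannot be told apart.

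Of 10578 genes tested, 81 were called, which is 0.766% of them: 44 were higher in the MLLT10 knockout (0.416%) and 37 lower (0.35%). At least 2-fold differences made up 25 of the higher and 11 of the lower genes. At an unadjusted p under 0.05 there were 1104 genes, and DESeq2 called 155, among them all 81. The median log2 fold change over all tested genes was 0.0025. All 81 called genes had the same sign in each of the 4 pairs of guides, as did 41.6% of all tested genes. In 24 of the 44 higher genes all 6 MLLT10 libraries lay above all 6 MLLT6 libraries, a pattern that 0.558% of all tested genes showed. The opposite pattern was found in 26 of the 37 lower genes, against 0.662% of all. The 81 genes were called from these same 12 libraries, which largely sets both the shared signs and the separation. Neither is therefore separate support for the calls.

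The number of calls rested on single libraries. Without MLLT6 guide 2 replicate 2 or 3, 27 or 26 genes were called higher. Without replicates 2 or 3 of MLLT10 guide 1, 21 or 22 genes were called lower, and without replicates 1, 2 or 3 of MLLT10 guide 2, 20, 20 or 18. Without replicate 2 of MLLT6 guide 1, 23 were called lower, and without replicates 2 or 3 of MLLT6 guide 2, 18 or 20. With every library thinned to the shallowest depth of 2403044 counts, 38 genes were called higher and 30 lower, 65 of them among the 81.

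**Figure D2:**
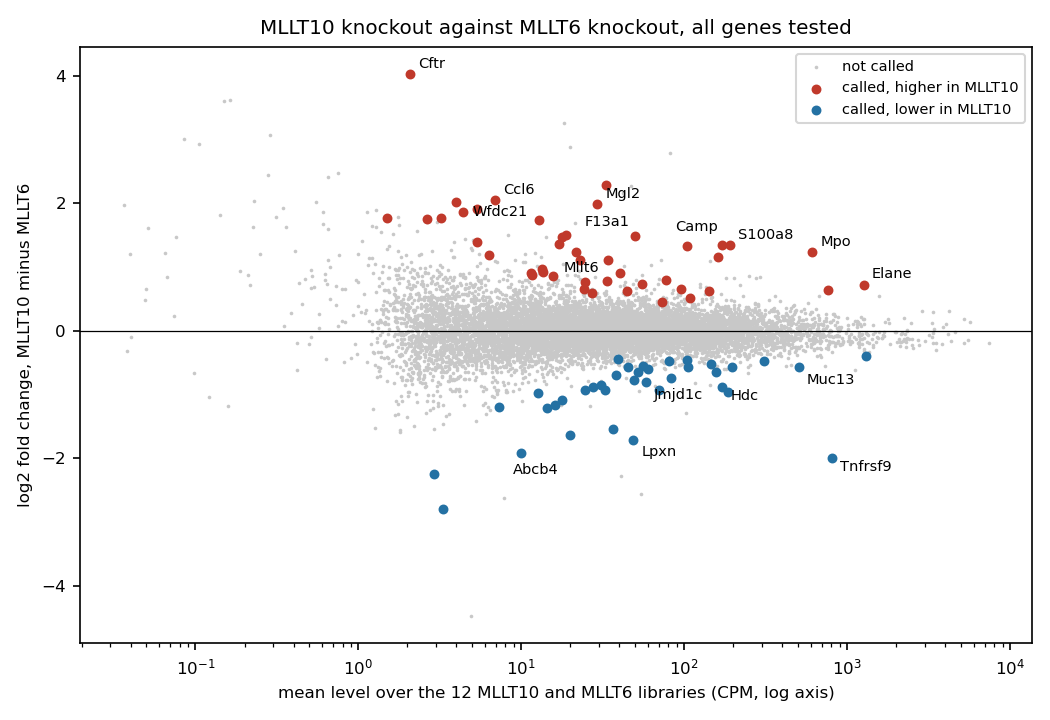
Log2 fold change of each of the 10578 tested genes (y axis, MLLT10 minus MLLT6) against its mean level over the 12 libraries (x axis, CPM, log scale), with called genes in red (44 higher) and blue (37 lower). Called genes span levels from that of Cftr to that of Elane, and most tested genes lie close to 0.

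The list of primary granule genes holds enzymes stored in the first granules, which form in promyelocytes. It also holds other proteins, such as the lectin Fcnb, haptoglobin (Hp) and the chaperone Calr. Of its 15 tested genes, 5 were called higher and 0 lower, with a median log2 fold change of 0.20. Of all tested genes, 0.416% were called higher and 0.35% lower. The gene lists used here and below were chosen with earlier results of these data known. Their counts and medians are thus not independent of these data. Without MLLT10 guide 1 replicate 2 or MLLT6 guide 2 replicate 3, 3 members were called, and in a fit of the 4 groups alone 1. Mpo (ENSMUSG00000009350, chromosome 11, 87793581 to 87804413) measured 975, 876 and 810 CPM in the 3 libraries of MLLT10 guide 1, and 927, 865 and 668 CPM in those of guide 2. MLLT6 guide 1 gave 359, 312 and 378 CPM, MLLT6 guide 2 gave 433, 381 and 313 CPM, and the control gave 384, 369 and 271 CPM, so the MLLT6 libraries lay near the control and every MLLT10 library lay above both. The difference was 1.24 ± 0.13 in log2 (edgeR adjusted p = 9.57e-06), and it passed in each of the 4 pairs of guides and in all 19 alternatives.

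The serine proteases Elane (neutrophil elastase, chromosome 10, 79886247 to 79888215) and Prtn3 (proteinase 3, chromosome 10, 79874476 to 79883174) lie next to each other and were both higher. Elane averaged 1577 ± 330 CPM in the MLLT10 knockout, 953 ± 210 CPM in the MLLT6 knockout and between 801 and 1138 CPM in the control. Its libraries overlapped: the lowest MLLT10 library, at 1244 CPM, lay below the highest MLLT6 library, at 1270 CPM. The difference of 0.72 ± 0.14 in log2 passed (edgeR adjusted p = 0.0136) and was lost in 3 of 19 alternatives: without MLLT10 guide 1 replicate 2 (adjusted p = 0.0509), without MLLT6 guide 2 replicate 3 (0.0522) and in a fit of these 4 groups alone (0.0554).

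Prtn3 was at 721 to 1282 CPM in the MLLT10 knockout and at 392.1 to 714 CPM in the MLLT6 knockout, with no overlap (0.64 ± 0.12 in log2, edgeR adjusted p = 0.00991, and 0.0545 in a fit of the 4 groups alone). Its control libraries, at 699, 839 and 729 CPM, had a mean between those of the knockouts. Prtn3 overlaps Plppr3 on the other strand. Fcnb, the lectin ficolin B, was at 4.69 to 11.3 CPM against 0.347 to 4.78 CPM (1.92 ± 0.35 in log2, edgeR adjusted p = 0.00671, and 0.0626 in a fit of the 4 groups alone), and its log2 fold change was 2.68 without MLLT6 guide 1 replicate 3. Hp, haptoglobin, averaged 42.4 ± 7.73 against 24.6 ± 5.67 CPM with overlap (0.78 ± 0.17 in log2, edgeR adjusted p = 0.0311), and was lost in 10 of 19 alternatives, most without MLLT10 guide 2 replicate 2 (adjusted p = 0.0971).

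The most abundant other genes on the primary granule list did not pass the test. Cathepsin G (Ctsg) averaged 4600 ± 706 CPM against 4637 ± 664 CPM, with a log2 difference of -0.01 ± 0.12. Serglycin (Srgn), the proteoglycan that packs granule enzymes, differed by 0.06 ± 0.15 and the chaperone Calr by -0.19 ± 0.17.

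Specific and gelatinase granule genes, which follow later in neutrophil maturation, held 7 higher and 0 lower genes among 31 tested. Over all tested genes, 0.416% were called higher and 0.35% lower. The list's median log2 fold change was 0.72, against 0.0025 over all genes. Positive values were found in 28 of the 31, and in 5336 of all 10578 tested genes. With 1 library left out, 5 to 9 members were called, with the DESeq2 test 13 and with no filter on low counts 16. S100a8 (ENSMUSG00000056054, chromosome 3, 90668978 to 90670035) and S100a9 (chromosome 3, 90692632 to 90695721) encode the subunits of calprotectin, a calcium-binding protein that fills the neutrophil cytosol. S100a8 measured 364, 216 and 229 CPM in the 3 libraries of MLLT10 guide 1, and 370, 235 and 223 CPM in those of guide 2. MLLT6 guide 1 gave 112, 70.5 and 87.6 CPM, MLLT6 guide 2 gave 220, 95.3 and 72.8 CPM, and the control gave 97.7, 53.2 and 61.4 CPM. A single MLLT6 library, guide 2 replicate 1, reached the range of the MLLT10 libraries, and the difference was 1.34 ± 0.22 in log2 (edgeR adjusted p = 0.00192).

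S100a9 was at 188 to 277 CPM against 74.5 to 181 CPM, with no overlap and a difference of 1.16 ± 0.18 in log2 (edgeR adjusted p = 0.00122). In both S100 genes, replicate 1 was the highest of its 3 libraries with each of the 4 guides and in the control.

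Camp, the antimicrobial peptide cathelicidin (chromosome 9, 109847379 to 109849617), measured 170, 123 and 131 CPM in the 3 libraries of MLLT10 guide 1, and 187, 125 and 151 CPM in those of guide 2. MLLT6 guide 1 gave 63.3, 38 and 34.3 CPM, MLLT6 guide 2 gave 99.3, 68.98 and 62.3 CPM, and the control 48.2 to 72.1 CPM. The libraries did not overlap, and the difference was 1.33 ± 0.18 in log2 (edgeR adjusted p = 0.000329).

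Wfdc21, a small protein with a WAP domain, averaged 19.8 ± 2.91 against 5.80 ± 2.39 CPM, with 0.626 to 2.88 CPM in the control (1.74 ± 0.21 in log2, edgeR adjusted p = 0.000110, called in each of the 4 pairs of guides). Trem3, a receptor of the myeloid TREM family, averaged 27.7 ± 5.14 against 9.97 ± 3.39 CPM (1.502 ± 0.21 in log2, edgeR adjusted p = 0.000373). Ltf, the iron-binding lactoferrin, and Cybb, the catalytic subunit of the phagocyte NADPH oxidase, were called at low level. Ltf averaged 6.78 ± 3.51 against 1.99 ± 1.78 CPM and Cybb 2.23 ± 0.766 against 0.760 ± 0.592 CPM, and each was called in 7 alternatives. Without MLLT6 guide 1 replicate 3 their edgeR adjusted p was 0.102 and 0.211.

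Slpi, an inhibitor of neutrophil elastase on the same list, went the other way. It averaged 888 ± 140 CPM in the MLLT10 knockout and 1357 ± 252 CPM in the MLLT6 knockout, with all 6 MLLT10 libraries below all 6 MLLT6 libraries. Its log2 difference of -0.61 ± 0.15 did not pass edgeR's test (adjusted p = 0.0527), and passed in 7 of 19 alternatives, among them without MLLT6 guide 1 replicate 3 (adjusted p = 0.0289) and without MLLT10 guide 2 replicate 1 (0.0324). BC100530, a stefin A gene with near-identical copies, so that its counts are uncertain, differed by 0.72 ± 0.24 and did not pass (edgeR adjusted p = 0.211), except with no filter on low counts (1.99e-05). Plac8 differed by 0.20 ± 0.21.

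Since S100a8 and S100a9, and Prtn3 and Elane, are neighbouring pairs that were higher together, their promoters are printed here with that of Lpxn, the lower gene with the smallest adjusted p. Each is the 200 bases before the start of the gene in RefSeq (GRCm38.p6), read 5′ to 3′ on the gene's strand. Capitals mark matches on either strand to the core letters bound by the myeloid factor PU.1 (GAGGAA) or by Runx factors (TGTGGT), which share no overlapping match here. For Prtn3 the annotations differ: its RefSeq start lies 5191 bases after the GENCODE start given above, so this window is within the GENCODE gene. The other starts printed differ by at most 93 bases.
S100a8, chr3:90668871-90669070, plus strand: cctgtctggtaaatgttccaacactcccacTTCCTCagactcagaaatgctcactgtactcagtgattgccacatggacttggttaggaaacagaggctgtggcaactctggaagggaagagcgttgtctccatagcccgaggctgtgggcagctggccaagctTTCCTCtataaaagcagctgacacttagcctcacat
S100a9, chr3:90695722-90695921, minus strand: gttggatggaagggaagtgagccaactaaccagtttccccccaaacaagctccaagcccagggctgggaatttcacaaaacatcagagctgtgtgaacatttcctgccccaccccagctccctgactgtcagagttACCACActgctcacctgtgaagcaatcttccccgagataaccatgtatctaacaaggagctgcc
Prtn3, chr10:79879467-79879666, plus strand: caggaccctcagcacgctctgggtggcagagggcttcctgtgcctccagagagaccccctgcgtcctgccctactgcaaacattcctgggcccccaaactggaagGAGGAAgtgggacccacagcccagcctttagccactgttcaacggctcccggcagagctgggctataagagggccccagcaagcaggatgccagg
Elane, chr10:79886112-79886311, plus strand: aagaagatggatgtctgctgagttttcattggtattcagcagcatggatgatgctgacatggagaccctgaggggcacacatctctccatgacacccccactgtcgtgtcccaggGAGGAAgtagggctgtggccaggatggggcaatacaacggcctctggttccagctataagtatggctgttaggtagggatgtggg
Lpxn, chr19:12795993-12796192, plus strand: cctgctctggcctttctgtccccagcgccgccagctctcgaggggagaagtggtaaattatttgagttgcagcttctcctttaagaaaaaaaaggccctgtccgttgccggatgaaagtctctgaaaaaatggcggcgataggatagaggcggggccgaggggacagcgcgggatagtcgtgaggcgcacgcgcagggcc

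In these windows S100a8 held 2 PU.1 matches, Prtn3 and Elane 1 each, S100a9 1 Runx match and Lpxn none. RefSeq promoters were matched for 64 of the 81 called genes. The PU.1 letters were found in 11 of 31 promoters of higher genes (35.5%), in 6 of 33 of lower genes (18.2%) and in 1450 of the 8070 promoters of tested genes. The Runx letters were found in 19.4% of the higher, 9.09% of the lower and 8.29% of the tested genes. The letters of C/EBP factors (TTNNGCAA, no match in the promoters printed) were found in 16.1%, 6.06% and 5.66%. These are counts of letters in few promoters, and no binding was measured.

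Monocyte and macrophage genes held 2 higher and 1 lower gene among 18 tested, with a median log2 fold change of 0.39. The shares over all tested genes were 0.416% higher and 0.35% lower. Mgl2, a galactose-binding lectin of macrophages (chromosome 11, 70130329 to 70137550), measured 74.4, 33.2 and 31.4 CPM in the 3 libraries of MLLT10 guide 1, and 59.6, 45.4 and 34.8 CPM in those of guide 2. All MLLT6 libraries, from 7.91 to 16.96 CPM, and all control libraries, from 7.19 to 15.7 CPM, were lower. Its difference of 1.98 ± 0.25 in log2 passed in each of the 4 pairs of guides (edgeR adjusted p = 0.000110 for their mean). A close copy, Clec10a, makes its counts uncertain.

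F13a1, the A subunit of coagulation factor XIII and a gene of monocytes (chromosome 13, 36867178 to 37050244), averaged 73.3 ± 18.8 against 26.04 ± 3.79 CPM, with 25.6 to 38.1 CPM in the control (1.48 ± 0.20 in log2, edgeR adjusted p = 0.000324). The MLLT6 and control libraries overlapped, and the lowest MLLT10 library, at 42.6 CPM, lay above all of them. Adgre1, the macrophage surface protein F4/80, was lower in the MLLT10 knockout: 122 ± 17.5 against 190 ± 19.4 CPM, with no overlap (-0.64 ± 0.13 in log2, edgeR adjusted p = 0.0158). That call was lost without any 1 of 4 libraries: MLLT10 guide 1 replicate 2, MLLT10 guide 2 replicate 3, MLLT6 guide 1 replicate 2 or MLLT6 guide 2 replicate 3 (adjusted p up to 0.0594, edgeR). The transcription factor Irf8 (0.00 ± 0.17), Ly6c2 (0.14 ± 0.16) and Fcgr3 (-0.29 ± 0.11) did not pass. By edgeR and by DESeq2, 0 of the 19 tested myeloid transcription factors were called, with 6 at an unadjusted p under 0.05. Of all 10578 tested genes, 81 were called by edgeR and 1104 were under that unadjusted p.

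Of the 11 tested cytokines and chemokines, whose median was 0.43, 2 were higher, against 0.416% of all tested genes. These were the chemokines Ccl6 and Ccl9. They lie on chromosome 11 with 9246 bases between them. Ccl6 (83587882 to 83593087) measured 14.5, 9.23 and 11.02 CPM in the 3 libraries of MLLT10 guide 1, and 17.8, 7.57 and 6.25 CPM in those of guide 2. In the MLLT6 knockout it was at 0.613 to 4.24 CPM and in the control at 3.71 to 4.07 CPM, below every MLLT10 library (2.05 ± 0.34 in log2 between the knockouts, edgeR adjusted p = 0.00218). Ccl9 was at 160 to 187 CPM against 73.6 to 128 CPM (0.63 ± 0.13 in log2, edgeR adjusted p = 0.0158), and its control libraries were at 71.3 to 97.3 CPM. The Ccl9 call was lost without MLLT10 guide 2 replicate 2 (adjusted p = 0.0503, edgeR). Both belong to a family of related chemokines, so reads may be shared.

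Further named higher genes were in none of the lists. Slc40a1, the iron exporter ferroportin, averaged 25.9 ± 6.10 against 9.49 ± 4.50 CPM, with no overlap (1.46 ± 0.22 in log2, edgeR adjusted p = 0.000653). Ctse, the aspartic protease cathepsin E, averaged 30.4 ± 4.44 against 13.1 ± 4.39 CPM (1.23 ± 0.20, edgeR adjusted p = 0.00122). Its neighbour Rab7b, a GTPase of late endosomes 13190 bases away, was also higher (0.98 ± 0.21, edgeR adjusted p = 0.0280). The Rab7b call was lost in 8 of 19 alternatives, most without MLLT10 guide 1 replicate 2 (adjusted p = 0.0864), and at 0.0655 without MLLT6 guide 1 replicate 3. Tnfaip6, a hyaluronan-binding protein, averaged 7.64 ± 1.59 against 2.98 ± 0.817 CPM, and the control, at 4.07 to 6.61 CPM, lay between the means (1.39 ± 0.25, edgeR adjusted p = 0.00490).

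Ampd3, an AMP deaminase, had similar mean levels in the MLLT10 and control libraries and a lower mean in the MLLT6 libraries. Against the control, Ampd3 was not called in the MLLT6 knockout (edgeR adjusted p = 0.5505). It was at 5.59 to 10.7 CPM in the MLLT10 knockout, at 6.57 to 12.1 CPM in the control and at 2.21 to 6.24 CPM in the MLLT6 knockout (1.19 ± 0.25, edgeR adjusted p = 0.0180). The call was lost without MLLT10 guide 1 replicate 3 (adjusted p = 0.0550), without MLLT6 guide 1 replicate 3 (0.0554) and in a fit of the 4 groups alone (0.0645). Antxr2, a receptor of anthrax toxin and of collagen, averaged 24.4 ± 9.80 against 9.48 ± 2.00 CPM (1.36 ± 0.30, edgeR adjusted p = 0.0283). It was lost in 8 of the 12 analyses that left out 1 library, most without MLLT10 guide 1 replicate 1 (adjusted p = 0.119), and at 0.0573 without MLLT6 guide 1 replicate 3.

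The largest fitted difference was in Cftr, a chloride channel below the level set for named genes and named after its values were seen. It was at 1.88 to 5.86 CPM in the MLLT10 knockout and at 0 to 0.693 CPM in the MLLT6 knockout (4.03 ± 0.59 in log2, edgeR adjusted p = 0.000534). Its control libraries were at 0 to 0.824 CPM, and the size of the fold rests on few counts.

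The lower genes held 2 members of the tumour necrosis factor receptor family. Tnfrsf9, the costimulatory receptor 4-1BB (ENSMUSG00000028965, chromosome 4, 150914562 to 150946102), measured 140, 509 and 464 CPM in the 3 libraries of MLLT10 guide 1, and 281, 246 and 273 CPM in those of guide 2. Levels were 1438, 1640 and 1576 CPM with MLLT6 guide 1, MLLT6 guide 2 gave 1134, 1123 and 822 CPM, and the control gave 988, 1652 and 927 CPM. Every MLLT10 library lay below every MLLT6 and control library, and the 2 knockouts differed by -2.004 ± 0.38 in log2 (edgeR adjusted p = 0.00848). No single pair of guides passed on its own, and the gene overlaps Camta1 on the other strand. Tnfrsf18, the receptor GITR, averaged 8.84 ± 3.90 against 19.96 ± 4.99 CPM with overlap (-1.22 ± 0.26, edgeR adjusted p = 0.0213), and was lost in 6 of 19 alternatives, most without MLLT10 guide 2 replicate 1 (adjusted p = 0.0841), and at 0.0506 without MLLT6 guide 1 replicate 3.

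Lpxn (ENSMUSG00000024696, chromosome 19, 12796193 to 12833807) measured 15.4, 30.5 and 25.6 CPM in the 3 libraries of MLLT10 guide 1, and 18.4, 24.3 and 23.4 CPM in those of guide 2. The MLLT6 libraries held 58.3, 74.8 and 85.7 CPM with guide 1 and 73.9, 77.0 and 77.0 CPM with guide 2, much like the control at 82.8, 81.0 and 64.9 CPM. The difference was -1.71 ± 0.17 in log2 (edgeR adjusted p = 9.57e-06), and Lpxn alone of the 37 lower genes was called in each of the 4 pairs of guides. Of the 19 tested integrin and adhesion genes, Lpxn and Itgb7, the integrin beta 7 chain, were called, both lower. The share called lower over all tested genes was 0.35%. Itgb7 averaged 36.3 ± 6.20 against 61.8 ± 7.35 CPM, with no overlap (-0.77 ± 0.15, edgeR adjusted p = 0.00848).

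Abcb4, a phospholipid transporter, averaged 4.17 ± 1.88 against 15.9 ± 2.54 CPM (-1.92 ± 0.28 in log2, edgeR adjusted p = 0.000534). C2cd4b, a nuclear protein with a C2 domain, averaged 18.4 ± 6.53 against 54.7 ± 13.3 CPM (-1.54 ± 0.23, edgeR adjusted p = 0.000615). In both, no MLLT10 library reached the lowest MLLT6 library, and each was called in all 19 alternatives. Aff3, a nuclear protein of the AF4 family that supplies further MLL fusion partners, averaged 9.79 ± 2.82 against 22.5 ± 4.88 CPM, with no overlap (-1.17 ± 0.18, edgeR adjusted p = 0.000817).

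Hdc, the enzyme that makes histamine, was the gene called by edgeR among 6 tested mast cell and basophil genes (0.766% over all tested genes). DESeq2 called Cpa3 as well, and called 155 of all 10578 tested genes. At an unadjusted p under 0.05 there were 4 of the 6, 1 of them higher in the MLLT10 knockout, against 1104 of all tested genes. Hdc was at 103 to 135 CPM in the MLLT10 knockout, at 181 to 319 CPM in the MLLT6 knockout and at 141 to 198 CPM in the control (-0.89 ± 0.15 between the knockouts, edgeR adjusted p = 0.00223). The sum of the 13 markers on that list was 261 to 311 CPM against 352 to 462 CPM, with medians of 292 and 389 CPM. Hdc, with medians of 122 and 203 CPM, is counted in that sum, which is therefore not separate from the Hdc result. Of the 13 markers, 7 had no count in any of the 12 libraries. The part of such cells in the result was not tested. Hbb-bt, an adult beta globin with near-identical copies and so an uncertain count, was the called gene of 2 tested erythroid genes, at 47.6 ± 15.7 against 93.4 ± 21.3 CPM (-0.94 ± 0.19, edgeR adjusted p = 0.0131). Ctla2a, a cysteine protease inhibitor that also has a close copy, averaged 125 ± 25.8 against 249 ± 56.9 CPM (-0.97 ± 0.17, edgeR adjusted p = 0.00328).

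Of the remaining named lower genes, the long non-coding RNA Platr26 (-0.94 ± 0.19) and Lypd6, a modulator of Wnt signalling (-0.93 ± 0.19), were called in 17 and 15 of 19 alternatives. Without MLLT6 guide 2 replicate 2 both were lost, at edgeR adjusted p = 0.0566 each. Xdh, the purine enzyme xanthine dehydrogenase (-1.08 ± 0.22), and Mcub, a subunit of the mitochondrial calcium uniporter (-0.98 ± 0.21), were called in 12 and 11, with edgeR adjusted p = 0.0730 and 0.0870 without MLLT6 guide 1 replicate 3. Acsbg1, an acyl-CoA synthetase, was called in 6 (-1.19 ± 0.28). In Acsbg1 MLLT6 guide 1, at 12.02 to 16.7 CPM, lay apart from guide 2, at 3.47 to 8.09 CPM, and without replicate 3 of guide 2 its adjusted p was 0.149 (edgeR), and without replicate 3 of guide 1 it was 0.114.

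**Figure D3:**
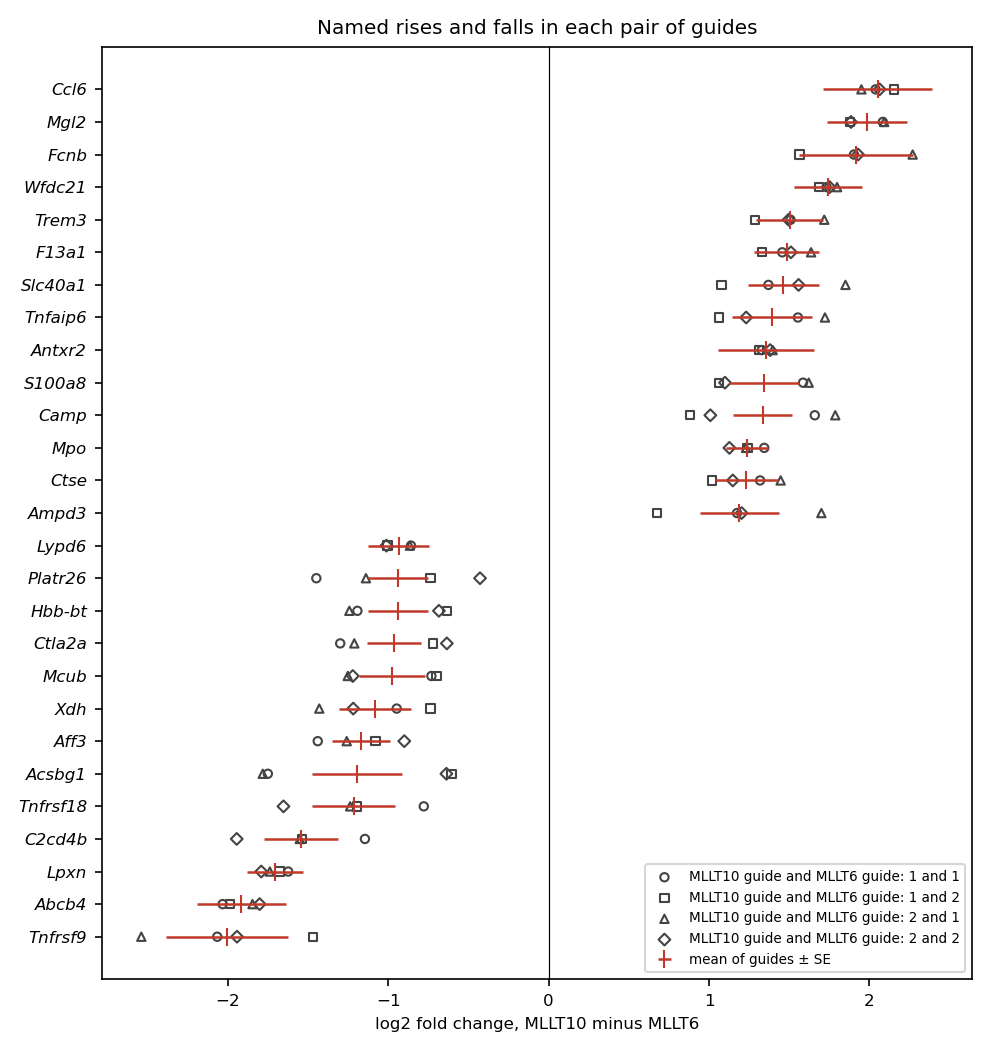
Log2 fold change (x axis, MLLT10 minus MLLT6) of 14 named higher and 13 named lower genes in each of the 4 pairs of guides (open symbols) and for the mean of the guides with its SE (red). All symbols of a gene lie on one side of 0, which the rule for naming required; those of Mpo and Lpxn lie close together, while those of Ampd3, Acsbg1 and Platr26 are spread.

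The 4 pairs of a guide for MLLT10 with a guide for MLLT6 were also tested one by one; pairs that use the same guide share its 3 libraries. MLLT10 guide 1 against MLLT6 guide 1 gave 25 calls (0.236% of genes): 17 higher (0.161%) and 8 lower (0.0756%). MLLT10 guide 2 against MLLT6 guide 1 gave 21 (0.199%), 15 higher (0.142%) and 6 lower (0.0567%). Against MLLT6 guide 2, MLLT10 guide 1 gave 8 calls (0.0756%), 6 higher (0.0567%) and 2 lower (0.0189%). MLLT10 guide 2 against MLLT6 guide 2 gave 11 (0.104%), 8 higher (0.0756%) and 3 lower (0.0284%). In these last pairs replicate numbers pair the libraries, and with the number as a block the counts were 15 and 40. In all 4 pairs Mpo, Mgl2, Wfdc21, the predicted gene I830127L07Rik and Lpxn were called. Of the 44 higher genes, 20 were called in at least 1 pair, and of the 37 lower genes 9.

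The counts for MLLT6 guide 1 rested on single libraries. Against MLLT10 guide 1, 4 genes were called without replicate 2 or without replicate 3 of MLLT6 guide 1, and 57 without replicate 1. With replicates 1, 2 or 3 of MLLT10 guide 1 left out, 16, 11 or 9 were called. For MLLT10 guide 2 the count was 8 without replicate 2 and 5 without replicate 3 of MLLT6 guide 1, and 13 without replicate 1 of MLLT10 guide 2. Against MLLT6 guide 2, MLLT10 guide 1 gave 3, 3 or 4 calls without its replicates 1, 2 or 3, and 2 or 1 without replicates 2 or 3 of MLLT6 guide 2. For MLLT10 guide 2 these were 4, 6 or 6, and 1 or 2.

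Guides for the same gene were compared as a measure of what differs without a change of target. MLLT10 guides 1 and 2 differed in 0 genes by edgeR (0.0%), with 182 at an unadjusted p under 0.05 and 0 by DESeq2. MLLT6 guides 1 and 2 also differed in 0 genes by edgeR (0.0%), with 983 at an unadjusted p under 0.05 and 7 by DESeq2. The numbers at an unadjusted p thus differed widely between the genes' guides, and the 983 came close to the 1104 of the comparison between knockouts.

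Known targets of MLL fusions held 0 higher and 1 lower gene among 29 tested. Their median log2 fold change was -0.18, and 7 of the 29 were positive. Over all 10578 tested genes, 0.416% were called higher, 0.35% lower, and 5336 were positive. The called gene was Jmjd1c, a histone demethylase of the JmjC family (chromosome 10, 67096125 to 67256326). It measured 43.8, 42.4 and 44.4 CPM in the 3 libraries of MLLT10 guide 1, and 34.2, 39.1 and 51.2 CPM in those of guide 2. MLLT6 guide 1 gave 60.4, 67.4 and 89.4 CPM, MLLT6 guide 2 gave 68.8, 76.6 and 79.1 CPM, and the control gave 60.6, 68.2 and 73.5 CPM. No MLLT10 library reached the MLLT6 or control libraries, and the difference was -0.80 ± 0.14 in log2 (edgeR adjusted p = 0.00328). Reep3, which overlaps Jmjd1c on the other strand, was also lower (-0.46 ± 0.10, edgeR adjusted p = 0.0283), and reads of the overlap may be shared. Its call was lost in 9 of 19 alternatives, most without MLLT6 guide 2 replicate 3 (adjusted p = 0.109).

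All 6 tested Hoxa genes had a negative log2 fold change, with a median of -0.38. By edgeR 0 were called, with 4 at an unadjusted p under 0.05. Across all 10578 tested genes, 5336 had a positive log2 fold change and 1104 were under that p. Hoxa9, the homeobox factor central to this leukaemia, measured 177, 190 and 236 CPM in the 3 libraries of MLLT10 guide 1, and 176, 198 and 246 CPM in those of guide 2. Levels were 220, 277 and 282 CPM with MLLT6 guide 1, MLLT6 guide 2 gave 248, 255 and 279 CPM, and the control gave 271, 272 and 365 CPM. The ranges of the knockouts overlapped, and the difference of -0.36 ± 0.12 did not pass (edgeR adjusted p = 0.255). Hoxa10 (-0.40 ± 0.15), Hoxa11 (-0.46 ± 0.13) and Hoxa5 (-0.14 ± 0.13) did not pass either, although DESeq2 called Hoxa11 (adjusted p = 0.0428). Hoxa11os, a non-coding RNA antisense to Hoxa11, was called lower at 22.2 ± 6.24 against 39.7 ± 8.25 CPM (-0.84 ± 0.19, edgeR adjusted p = 0.0323), in 10 of 19 alternatives, and lost without MLLT6 guide 1 replicate 3 (adjusted p = 0.0907). Since the 2 genes overlap on opposite strands and the strand setting is not given, their reads may be shared. The fusion targets Myb (-0.19 ± 0.13), Lgals1 (-0.14 ± 0.10) and Cdk6 (-0.09 ± 0.11) did not pass.

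Of 19 tested stem and progenitor genes, 1 was higher and 1 lower, against 0.416% and 0.35% of all tested genes. Prom1, the surface protein CD133, averaged 46.8 ± 8.64 against 21.7 ± 5.58 CPM, with no overlap (1.11 ± 0.22 in log2, edgeR adjusted p = 0.0139). Its call was lost without MLLT6 guide 2 replicate 2 (adjusted p = 0.0593, edgeR) or replicate 3 (0.0546). Muc13, a transmembrane mucin, averaged 405 ± 49.0 against 603 ± 62.8 CPM (-0.58 ± 0.13, edgeR adjusted p = 0.0331) and was lost in 8 of the 12 analyses that left out 1 library (adjusted p up to 0.105, without MLLT10 guide 1 replicate 1).

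Where edgeR called 0.766% of all tested genes, it called 0 genes of growth, metabolism and stress. This covers 38 DNA replication genes (median log2 fold change 0.03), 30 mitosis genes (0.18), 48 ribosomal protein genes (-0.11), 35 oxidative phosphorylation genes (-0.04) and 29 glycolysis and hypoxia genes (-0.15). It also covers 22 interferon-stimulated genes (-0.16), 21 p53 targets (-0.12) and 15 genes of MHC presentation (-0.20). At an unadjusted p under 0.05 there were 3, 6, 2, 3, 2, 4, 5 and 3 genes in these lists, in that order. Of all 10578 tested genes, 1104 were under that threshold. DESeq2 called Parp14, an interferon-stimulated gene, Zmat3, a p53 target, and H2-Oa, of MHC class II presentation. All 6 mitosis genes at an unadjusted p under 0.05 were higher in the MLLT10 knockout. Among 45 histone lysine methyltransferases and demethylases, Jmjd1c was the called gene, and among 8 genes of the DOT1L complex, Mllt6. Within 1000000 bases of Mllt10, 0 of 7 tested genes were called, and around Mllt6 1 of 40, Mllt6 itself.

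**Figure D4:**
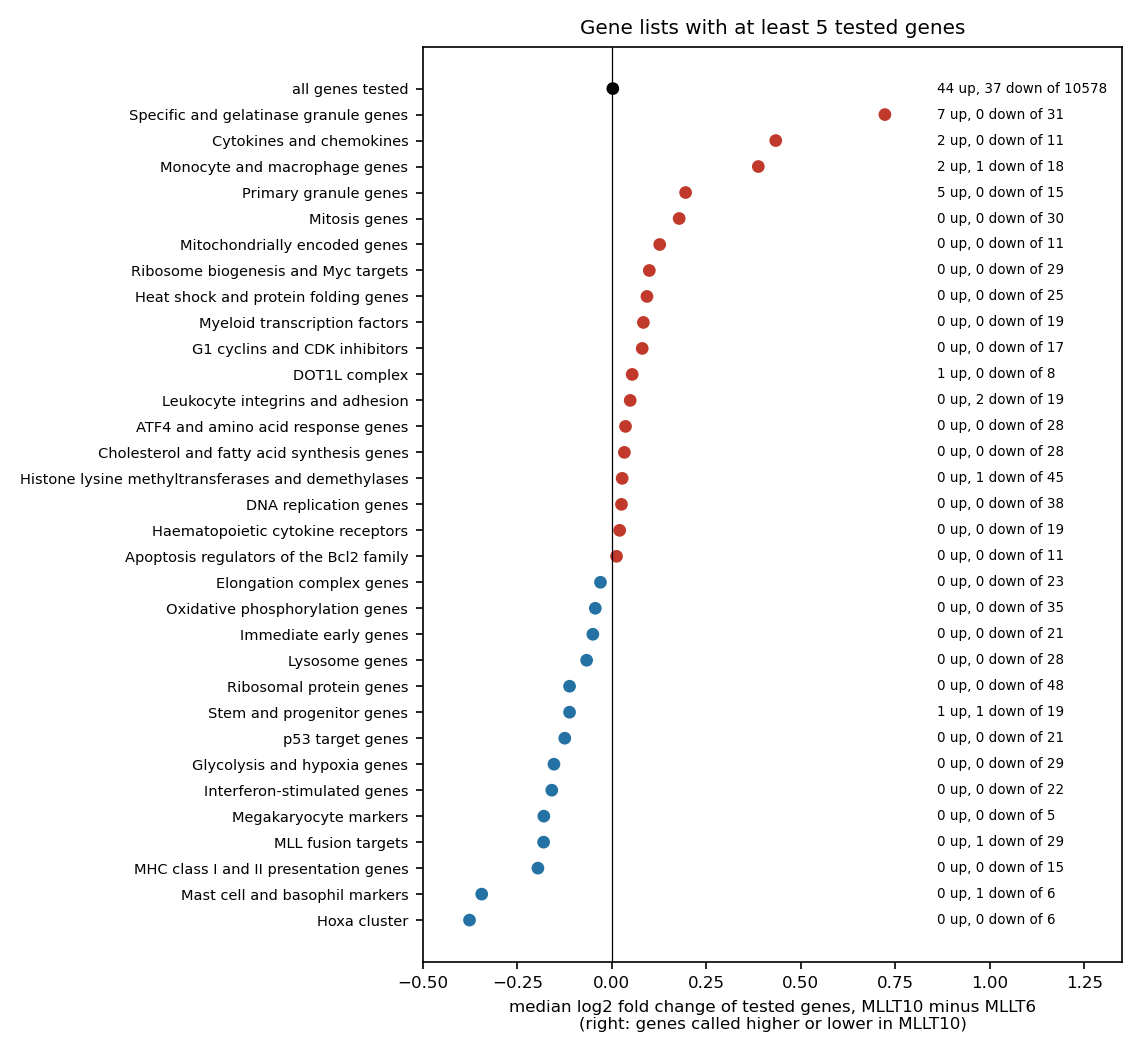
Median log2 fold change (x axis, MLLT10 minus MLLT6) of the tested genes of each list with at least 5, with the numbers called higher (up) and lower (down) at the right and all tested genes at the top (44 up, 37 down). Specific and gelatinase granule genes have the highest median (0.72) and Hoxa genes the lowest (-0.38), with 7 and 0 calls.

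The control libraries are part of the fit but not of the contrast, and give a level to set each knockout beside. Against the control, the MLLT10 knockout had 50 called genes (0.473%), 25 higher (0.236%) and 25 lower (0.236%), and 79 with the replicate number, which pairs these libraries, as a block. Without MLLT10 guide 1 replicate 1 the count was 33, and without control replicate 2 or 3 it was 15. The MLLT6 knockout had 0 called genes (0.0%) by edgeR and 0 by DESeq2, with 727 at an unadjusted p under 0.05 and a smallest adjusted p of 0.496. The difference between the knockouts is the direct contrast above and not this pair of counts, since both use the same 3 control libraries. In 39 of the 44 higher and 32 of the 37 lower genes, the MLLT10 mean was farther from the control mean than the MLLT6 mean. The MLLT10 mean was above the control in 42 of the 44 higher genes and in 0 of the 37 lower genes, and the MLLT6 mean in 21 and 22. These genes were chosen by the difference between the same MLLT10 and MLLT6 libraries, which partly sets such counts. The shares of all tested genes with these patterns were not worked out.

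The DOT1L knockout libraries share no sample with the contrast and were looked at after its values were seen. They are part of the same fit, so they helped to set its spread and its filter on low counts. A gene with enough counts in them alone could pass that filter. The shares below are thus not independent of these libraries. Of the 44 higher genes, 38 were also higher in the DOT1L knockout than in the control (edgeR, 11.2% of all tested genes were), 1, Mllt6, was lower and 5 were not called. Of the 37 lower genes, 28 were lower there (10.7% of all tested genes were), 0 were higher and 9 were not called. These are 86.4% and 75.7% of the 2 groups, and 3.22% and 2.48% of the 1181 higher and 1128 lower genes of the DOT1L knockout. Without MLLT6 guide 1 replicate 3 the shares were 93.9% and 78.6%, and with no filter on low counts 45.03% and 60.6%. The higher genes called without that filter were thus mostly not higher in the DOT1L knockout.

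S100a8 averaged 38750 ± 2566 CPM (n = 3) in the DOT1L libraries against 273 ± 73.2 CPM in the MLLT10 knockout, and Camp 16200 ± 2377 CPM against 148 ± 26.2 CPM. The size and direction varied among granule genes: Elane was at 2001 ± 89.4 CPM in the DOT1L libraries against 1577 ± 330 CPM in the MLLT10 knockout. Ctsg, at 2350 ± 422 CPM, and Slpi, at 372 ± 50.3 CPM, were lower in the DOT1L knockout than in the control (edgeR adjusted p = 4.4e-05 and 2.57e-07). Lpxn was near the MLLT10 level there, at 18.99 ± 7.49 CPM. Ccl9 and Tnfaip6 were among the 5 higher genes not called in the DOT1L knockout (with Gm13341, Ptpru and Rab7b), and Hdc, Mcub, Reep3, Wnk1, Qk, Avil, Itm2b, Mxd4 and Rsbn1l were the 9 lower ones. Hdc was at 183 ± 10.4 CPM there, within the control's range, and at 120 ± 13.4 CPM in the MLLT10 knockout.

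The MLLT1 knockout, another cofactor of DOT1L and of elongation complexes, had 273 called genes against the control, 2.58% of those tested. Its libraries are also part of the same fit and filter. Of the 44 higher genes, 20 were also higher there than in the control (0.974% of all tested genes were), 5 were lower and 19 were not called. Those 5 were Ccl9, F13a1, Mgst2, Prtn3 and Trf. Of the 37 lower genes, 13 were lower (1.61% of all), 1, Reep3, was higher and 23 were not called, Lpxn among them at 70.8 ± 8.04 CPM.

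**Figure D5:**
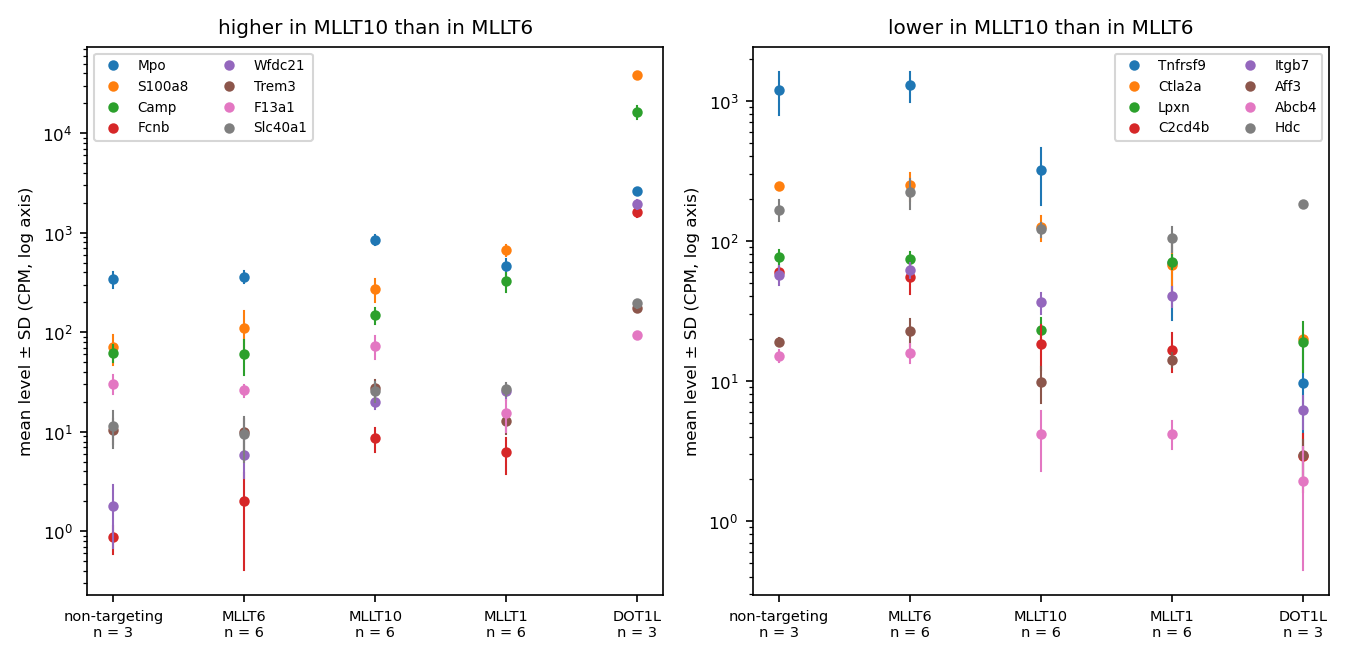
Mean level ± SD (y axis, CPM, log scale) of 8 genes higher and 8 genes lower in the MLLT10 than in the MLLT6 knockout, in the control (n = 3), the MLLT6, MLLT10 and MLLT1 knockouts (n = 6 each) and the DOT1L knockout (n = 3). S100a8 and Camp are highest in the DOT1L knockout, Lpxn is low with MLLT10 and DOT1L but not with MLLT1, and Hdc is not low with DOT1L.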

How the data were processed

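Raw counts of reads, as the authors deposited them, stand in 1 table with 43629 Ensembl genes. Bcl2fastq, HISAT2, HTSeq and DESeq2 were used with mm10, per the submitters' processing notes; versions, annotation and strand setting: not given in the sources used here. Columns were matched to samples by name. GENCODE M21 (GRCm38) gave symbols for 42548 genes.

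edgeR 4.0.16 in R 4.3.3 was run on the counts: TMM scaling, its filter on low counts by group (10578 genes stayed), 1 quasi-likelihood fit of all 8 groups, and Benjamini-Hochberg adjustment over all tested genes. A gene was called at an adjusted p under 0.05. The contrast is the mean of both MLLT10 guides minus the mean of both MLLT6 guides. The SE, worked back from the log2 fold change and the F statistic, is approximate. Levels are TMM-normalised CPM. The fit was tested on simulated data.

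Named genes were the DOT1L cofactors and the called genes with the 14 largest rises and 14 largest falls at 5 CPM or more and the same sign in all pairs of guides, without predicted names. Added to these were up to 4 called members of each list with the smallest adjusted p and up to 4 members with the highest level in the main lists; C3, Hp, Ltf, Cybb, Rab7b, Hoxa11os, Reep3 and Cftr, where given, were added after their values were seen. Some genes that the rule took are left out here. Members and the 37 gene lists were chosen with earlier results of these data known. Of 878 listed genes, 872 were found and 677 tested.

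There were 19 alternatives: DESeq2 1.42.0 size factors, the DESeq2 test, no filter, the compared groups alone, the replicate number as a block, leaving out each of the 12 libraries, leaving out MLLT6 guide 1 replicate 3 with MLLT1 guide 1 replicate 1, and thinning to equal depth, which was added after seeing the data. Replicates of a group differed by a chi-square per gene of 5.22 to 34.3, so each was counted as a library of its own. Numbers were taken to pair libraries where deviations from group means correlated above 0.1 for every number, as for MLLT6 guide 2 with MLLT10 guide 1 (0.273, 0.351 and 0.449) and guide 2 (0.336, 0.144 and 0.336), and for the control with both MLLT10 guides. No pairing held for MLLT6 guide 1. Guide sequences and proteins were not used here.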

Additional observations from a re-analysis of the deposited data

Results flagged for a closer look

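In 4 of 120 checks, a gene's level in 1 of the 6 libraries of a knockout stood far from the other 5, by Dixon's test. Chance gives about 1 in 20. S100a8 was at 219.7 CPM in MLLT6 guide 2 replicate 1, where the other MLLT6 libraries held 70.5 to 111.7 CPM. S100a9 was at 180.7 CPM in the same library, against 74.5 to 101.8 CPM. Plac8 was at 803.8 CPM in MLLT6 guide 1 replicate 3, against 1997 to 2591 CPM, and this is the library that stood apart from its group. Hoxa5 was at 35.69 CPM in MLLT6 guide 1 replicate 1, against 44.1 to 48.2 CPM. All 4 are MLLT6 libraries, and S100a8 and S100a9 stayed called without MLLT6 guide 2 replicate 1.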

How the results depend on the processing

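No called gene changed sign in any of the 19 alternatives, and 18 of the 44 higher and 12 of the 37 lower genes were called in all of them. The DESeq2 test called 79 higher and 76 lower genes, the fit without a filter on low counts 172 and 100, and the fit of the compared groups alone 26 higher genes. Leaving out 1 library gave 26 to 40 higher and 18 to 32 lower calls. With the replicate number as a block there were 59 and 55, 80 of the 81 calls among them. Numbers paired the libraries of both MLLT10 guides and of MLLT6 guide 2 with each other, but not those of MLLT6 guide 1. For MLLT10 guide 1 against MLLT6 guide 1, the block gave 42 calls, DESeq2 79, the compared groups alone 12, no filter 257, both libraries that stood apart left out 6, and 1 library left out 4 to 57. For guide 1 against guide 2 the block gave 15, DESeq2 23, the groups alone 2, no filter 68, equal depth 5, both libraries left out 15 and 1 left out 1 to 7. For guide 2 against guide 1, DESeq2 gave 55, the groups alone 7, no filter 208, equal depth 13, both left out 11 and 1 left out 5 to 29. For guide 2 against guide 2 the block gave 40, DESeq2 43, the groups alone 3, no filter 88 and 1 left out 1 to 15. Between the MLLT10 guides no filter gave 16 calls, and between the MLLT6 guides no filter gave 67 and DESeq2 7, with 0 to 1 when 1 library was left out of either. MLLT10 against the control gave 105 with DESeq2, 28 with the groups alone, 192 with no filter, 79 with the block, 79 with both left out and 15 to 56 with 1 left out. MLLT6 against the control gave 80 with no filter and 0 to 0 with 1 left out. The sign turned in uncalled genes near 0: leaving out 1 library gave a log2 fold change of -0.153 to 0.0235 for Mllt1, -0.210 to 0.0018 for Mllt3, -0.108 to 0.0766 for Ctsg, -0.0335 to 0.136 for Srgn, -0.0099 to 0.235 for Ly6c2 and -0.109 to 0.108 for Irf8. Without both libraries that stood apart Srgn was at -0.0335. The cause of these differences was not tested. At 2499684 to 7078139 counts per library, low genes carry few counts, which limits the calls among them.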

Other observations

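Further called genes lay outside the lists. C3, the central complement component, averaged 97.3 ± 10.8 CPM in the MLLT10 knockout and 56.6 ± 12.4 CPM in the MLLT6 knockout (SD, n = 6 each), with no overlap and a log2 difference of 0.79 ± 0.13 (edgeR adjusted p = 0.00129). Lbp, which binds bacterial lipopolysaccharide, differed by 0.66 ± 0.14, Trf, transferrin, by 0.93 ± 0.20 and Hfe, a regulator of iron uptake, by 0.90 ± 0.21 (edgeR adjusted p = 0.0208, 0.0264 and 0.0380). These calls were lost in 6, 10 and 13 of 19 alternatives, with adjusted p up to 0.0667 for Lbp (without MLLT6 guide 1 replicate 2), 0.183 for Trf (equal depth) and 0.121 for Hfe (without MLLT6 guide 2 replicate 2), and 0.114 for Hfe without MLLT6 guide 1 replicate 3. Igsf6, a myeloid surface protein whose gene overlaps Mettl9, averaged 31.5 ± 2.398 against 14.5 ± 6.42 CPM (1.11 ± 0.19, edgeR adjusted p = 0.00285). These genes were named after their values were seen.

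The replicate numbers of MLLT6 guide 1 did not follow those of the other groups. Deviations of its replicate 2 from the group mean correlated with those of replicate 3 of MLLT10 guides 1 and 2 and MLLT6 guide 2, at 0.360, 0.212 and 0.448 across genes. With replicate 2 of those groups the values were -0.141, 0.0891 and -0.158.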
